A study of Mus musculus with 10 samples.

Results

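The clade B serpins are a family of protease inhibitors that mostly stay inside the cell. The deposited table of normalized counts held 22 genes whose symbol is Serpinb followed by a number and at most 1 letter, of 23086 genes in all, and each of them is accounted for here. By number, 5 are the epithelial genes Serpinb2, Serpinb3a, Serpinb3b, Serpinb3d and Serpinb5, 12 belong to the broadly expressed Serpinb1, Serpinb6 and Serpinb9 sets, and 5 are the remaining genes Serpinb7, Serpinb8, Serpinb10, Serpinb11 and Serpinb12. RefSeq places the epithelial and remaining genes, 10 together, in one cluster on mouse chromosome 1 and the 12 broad genes in another on chromosome 13.

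The RNA came from mouse urothelial (bladder) tumours of the cell line BBN963, 5 with the genotype ATM-WT and 5 with ATM-KO, taken at a volume of 500 mm3. ATM, a kinase, starts the response to broken DNA, and the design asks what differs in tumours that lack it. All 10 tumours share the cell line, and every title starts with BBN, as the line's name does. The labels name no agent beyond these letters, and no animal strain, age or number of knockout clones. They do not tie each tumour to a mouse of its own, so the p-values reflect no more than the variation among these 10 libraries, which may in part be technical. The libraries are ATM-WT A1 to A5 and ATM-KO A11 to A15, as the table's columns name them. Each summed to between 20.2 and 22.3 M (mega) normalized counts. From the spacing of low values, 1 read was worth roughly 0.762 to 1.02 normalized counts in 9 libraries and 2.46 in A2, the shallowest at an estimated 8.82 M reads. A2 and A4 stood apart among the ATM-WT libraries, with 4824 and 4266 genes listed at 0 against 2225 to 3602 in the other libraries. The results below are therefore also given without A2 and A4 where this changed a call or a direction.

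A serpin carries an exposed loop that a protease takes for a substrate, and cutting it traps the protease in an inactive complex. Members of clade B have no classical signal peptide and guard cells against proteases released inside them or by neighbouring immune cells, among them granzyme B, neutrophil elastase, cathepsins and plasminogen activators. Several are typical of stratified epithelia, including the squamous cell carcinoma antigens (Serpinb3 genes in the mouse) and maspin (Serpinb5), which is a serpin by fold that is not known to trap proteases in this way. Rodents carry extra tandem copies of Serpinb1, Serpinb3, Serpinb6 and Serpinb9.

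Short motifs were counted in the upstream DNA of both clusters. RefSeq (GRCm38.p6) gave a promoter for 21 of the 22 genes, all but Serpinb1a, and the 250 bases before each start were searched on both strands. The AP-1 motif TGANTCA was found for 7 of 10 chromosome 1 genes and 0 of 11 chromosome 13 genes, against 7.82% of all 27025 genes with a promoter entry. AP-1 is a dimer of Fos and Jun proteins active in stress and in keratinocyte differentiation. All 10 chromosome 1 genes fell in ATM-KO tumours, the 3 without the motif included. None of the 11 chromosome 13 genes searched was called lower, and Serpinb1a, which was, had no promoter entry. The loose motif thus goes with the cluster, and any link to the fall cannot be told apart from the cluster and was not tested. The matches are shown because this loose motif was the most frequent of those searched in the chromosome 1 promoters. The motif is in capitals, and each stretch is written 5′ to 3′ on the gene's strand, which is plus for all of them.
Serpinb5, chr1:106861020-106861056: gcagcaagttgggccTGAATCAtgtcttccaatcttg
Serpinb12, chr1:106934389-106934425: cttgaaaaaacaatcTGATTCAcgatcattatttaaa
Serpinb11, chr1:107362118-107362154: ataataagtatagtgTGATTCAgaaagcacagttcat
Serpinb11, chr1:107362223-107362259: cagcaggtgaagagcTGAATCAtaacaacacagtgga
Serpinb7, chr1:107422629-107422665: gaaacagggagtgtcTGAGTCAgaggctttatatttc
Serpinb2, chr1:107511314-107511350: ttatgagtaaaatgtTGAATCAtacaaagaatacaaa
Serpinb10, chr1:107528934-107528970: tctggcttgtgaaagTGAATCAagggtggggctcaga
Serpinb8, chr1:107589968-107590004: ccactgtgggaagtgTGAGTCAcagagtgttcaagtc
Serpinb3a, Serpinb3b and Serpinb3d had no match in these windows. Of 4 further motifs searched, TATAAA stood in 6 of 10 and 1 of 11 promoters (14.3% of all genes), CCAAT in 3 and 2 (37.5%), the ETS core GGAAGT in 4 and 1 (22.2%), and the GRHL motif AACNGGTT in none (2.0%). Each motif was counted alone and on both strands, so matches of different motifs may overlap. A match of letters is not a binding site, and no binding was measured.

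A second set of sequences shows how alike the rodent copies of Serpinb9 are. The upstream 250 bases of Serpinb9e and Serpinb9g were 92.91% identical, and those of Serpinb9d and Serpinb9f were 80.75% to 88.63% identical to these and to each other. Serpinb9b was closer to Serpinb9 itself (58.21%) than to those 4 copies (45.87% to 48.26%). By the same alignment Serpinb5 gave 46.8% to 51.94% with the other members that had a promoter entry. The values of Serpinb9b with the 4 copies thus show no more likeness than that. In the following 44 upstream bases, on the plus strand, capitals mark the 5 positions at which the 4 copies differ.
Serpinb9d, chr13:33192866-33192909: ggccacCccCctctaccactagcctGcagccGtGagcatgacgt
Serpinb9e, chr13:33249520-33249563: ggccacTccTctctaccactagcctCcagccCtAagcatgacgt
Serpinb9f, chr13:33323974-33324017: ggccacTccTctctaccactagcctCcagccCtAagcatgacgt
Serpinb9g, chr13:33484698-33484741: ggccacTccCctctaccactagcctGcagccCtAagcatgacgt
The transcripts share sequence too, so reads of these copies can be assigned to the wrong one. Of the distinct stretches of 31 bases in the GENCODE M21 transcripts of a gene, 61.8% for Serpinb9g, 69.1% for Serpinb9f, 46.2% for Serpinb9e and 47.1% for Serpinb9d also occurred in another Serpinb gene. The share was 23.0% for Serpinb3a, 33.5% for Serpinb3b, 16.4% for Serpinb3d and 18.5% for Serpinb6c, and at most 11.8% for the other members. It was 0 for Serpinb5, Serpinb7, Serpinb8, Serpinb11 and Serpinb12.

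The chromosome 1 genes were lower in ATM-KO, and the chromosome 13 genes were mixed. Of the 22 genes, 18 had a mean of at least 10 normalized counts over the 10 libraries and were tested with limma among 16517 genes. Of these 18, 11 were lower and 4 higher in ATM-KO at an adjusted p under 0.05, where 24.3% of all genes tested were lower and 22.1% higher. Serpinb9b, Serpinb9e and Serpinb9g had ATM-WT means under 10 and passed the filter only through ATM-KO. All chromosome 1 genes but Serpinb2 and Serpinb8 had ATM-KO means under 10 and passed it only through ATM-WT. With no filter on the mean, 11 of the 22 genes were lower and 4 higher. All 10 chromosome 1 genes were lower, with a median log2 fold change of -5.46 (-5.39 without Serpinb3d, listed at 0 in every ATM-KO library). Among the 8 tested chromosome 13 genes, 1 was lower, 4 were higher and 3 were not called, with a median of 0.86. The median over all genes tested was 0.00467. By the rule's own groups, all 5 epithelial genes fell (median -5.52, or -6.31 without Serpinb3d), all 5 remaining genes fell (median -5.39), and the broad genes are those of chromosome 13. The difference between the clusters was not itself tested, and the tumours are bulk samples, in which fewer cells of a type and less RNA per cell cannot be told apart. Log2 fold changes are ATM-KO minus ATM-WT on log2(value + 1), which understates changes of low genes, and are given ± SE. Levels are normalized counts with no correction for gene length, so they are compared between samples and not between genes.

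**Figure D1:**
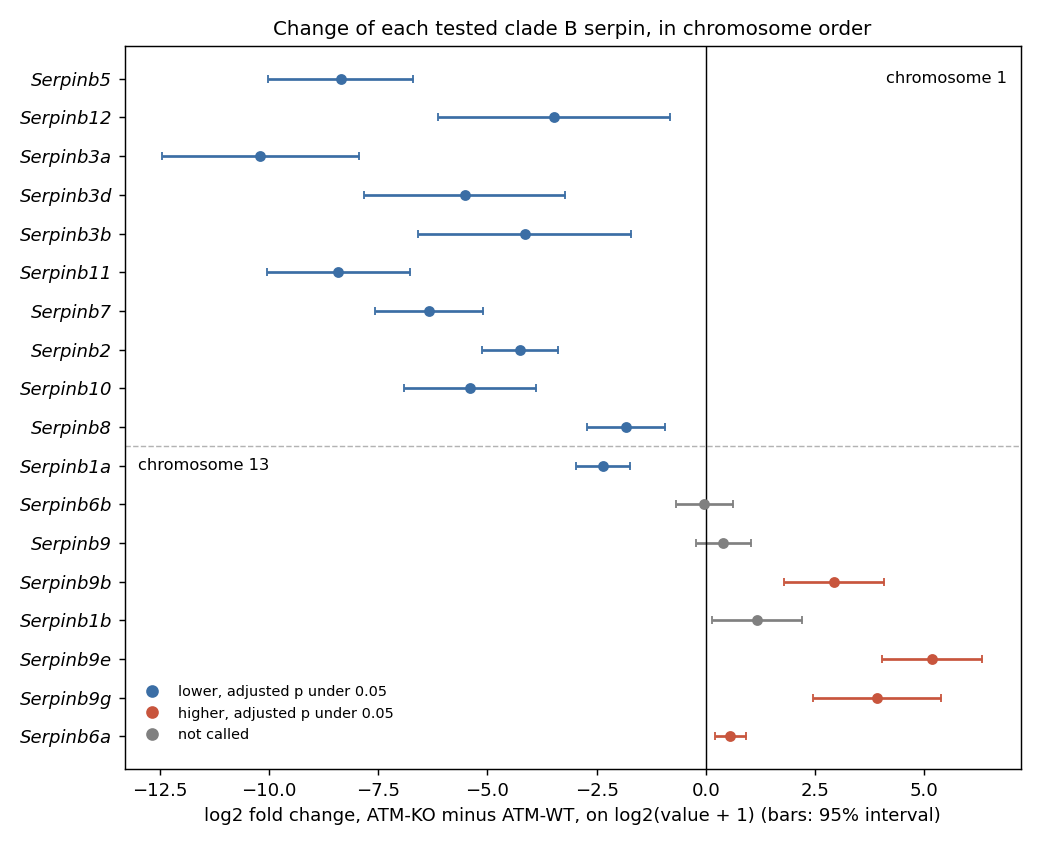
Log2 fold change (ATM-KO minus ATM-WT, horizontal axis) of the 18 tested clade B serpins, in the order in which they lie on chromosome 1 (top) and chromosome 13 (bottom), with 95% intervals from limma over 5 libraries per group. All 10 chromosome 1 genes lie left of 0, and the chromosome 13 genes range from -2.35 for Serpinb1a to 5.17 for Serpinb9e. The value of Serpinb3d depends on the pseudocount, because it is listed at 0 in ATM-KO.

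Among the epithelial genes, Serpinb3a had the largest fall of the family. Serpinb3a is a mouse relative of the squamous cell carcinoma antigens, which inhibit cysteine and serine proteases. Serpinb3a held 136, 10651, 683, 9948 and 2079 normalized counts in A1 to A5, and 0, 0, 1.53, 2.69 and 0 in A11 to A15. The groups did not overlap, and the ATM-WT tumours themselves spread 78.1-fold, with A2 and A4 far above the rest. The log2 fold change was -10.20 ± 1.04 (limma adjusted p = 7.93e-06). The exact permutation test, two-sided, gave p = 0.0079, the smallest that 5 against 5 allows. Without A2 and A4 the log2 fold change of Serpinb3a was -8.54.

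The neighbouring copies Serpinb3d and Serpinb3b were low in the same libraries. Serpinb3d held 4.39, 283, 10.96, 316 and 34.4 in ATM-WT libraries, while all 5 ATM-KO libraries had it at 0 (limma adjusted p = 9.70e-04), so no fold is given. Serpinb3b held 0, 71.3, 8.96, 102 and 43.3 in ATM-WT and 0, 0, 0, 0.893 and 0 in ATM-KO. Because A1 also had 0, the groups overlapped at that value. The log2 fold change of Serpinb3b was -4.14 ± 1.12 (limma adjusted p = 0.0088), and without A2 and A4 it was -2.74 and no longer passed (adjusted p = 0.056, range over all alternatives 1.73e-04 to 0.056).

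Maspin and the plasminogen activator inhibitor Serpinb2 also fell, and here every ATM-WT tumour carried clear signal. Serpinb5 held 362, 2362, 415, 1836 and 1174 in ATM-WT against 0, 1.85, 12.2, 4.47 and 0 in ATM-KO. The log2 fold change of Serpinb5 was -8.35 ± 0.76 (limma adjusted p = 3.58e-06), with no overlap between groups. Serpinb2, an inhibitor of urokinase that macrophages and keratinocytes make when stimulated, held 446, 573, 667, 215 and 351 in ATM-WT. In ATM-KO it held 14.4, 10.2, 37.2, 33.2 and 21.4, so it remained above 0 in each tumour. Its log2 fold change was -4.26 ± 0.40 (limma adjusted p = 4.40e-06), and its mean was 19.4-fold lower in ATM-KO.

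**Figure D2:**
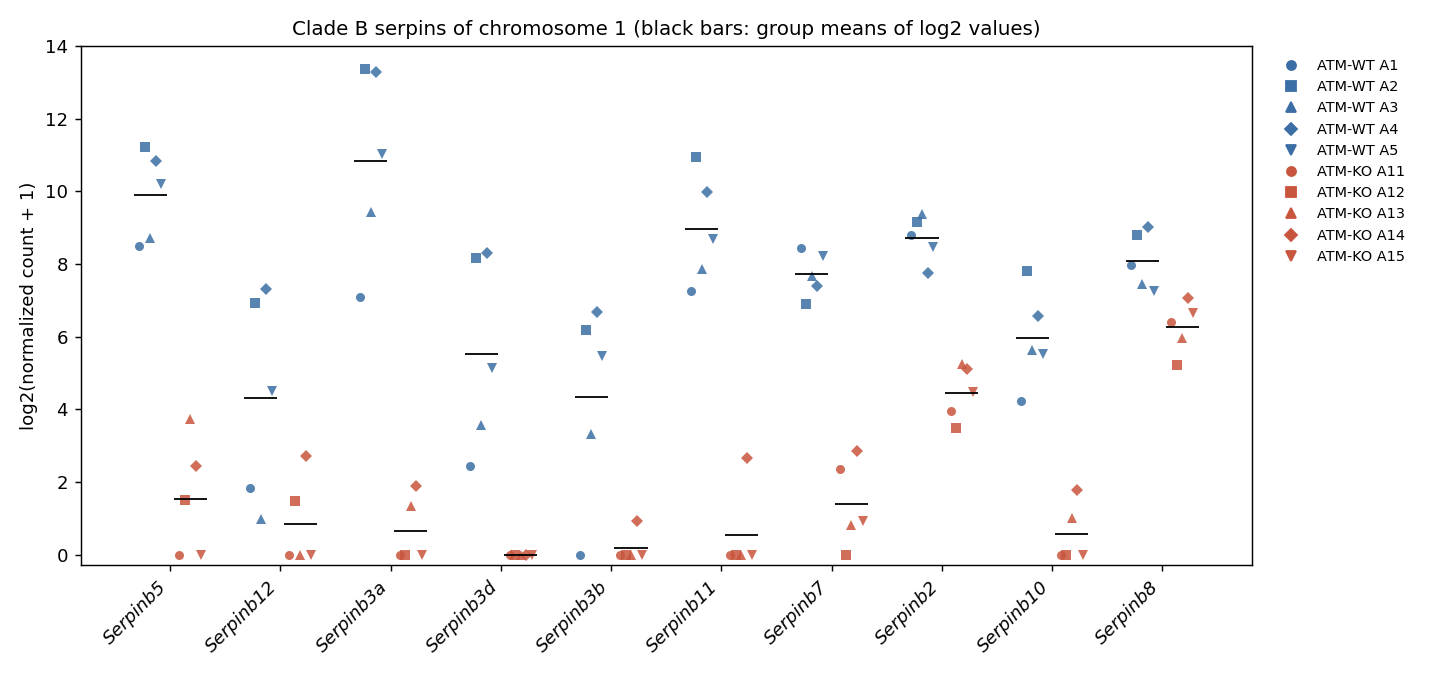
Each point is 1 library's log2(normalized count + 1) of a chromosome 1 member (vertical axis), ATM-WT in blue and ATM-KO in red with 1 marker shape per library, and black bars are group means of log2 values over 5 libraries. Serpinb2 and Serpinb8 keep values above 0 in every ATM-KO library, while Serpinb3d lies at 0 in all 5.

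The remaining chromosome 1 genes differed in how completely they fell. Serpinb11, which epithelial tissues express, held 152, 1981, 233, 1015 and 407 in ATM-WT, against 0 in 4 ATM-KO libraries and 5.36 in A14 (-8.41 ± 0.75, limma adjusted p = 3.13e-06). Serpinb7, also called megsin, held 345, 118, 204, 167 and 295 in ATM-WT and 4.09, 0, 0.762, 6.25 and 0.889 in ATM-KO (-6.33 ± 0.57, limma adjusted p = 3.23e-06). Serpinb10, or bomapin, is best known from bone marrow cells. It held 17.8, 223, 48.3, 93.5 and 45.1 in ATM-WT and 0, 0, 1.03, 2.41 and 0 in ATM-KO (-5.39 ± 0.70, limma adjusted p = 5.08e-05). In all 3 of these genes the groups did not overlap.

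Serpinb8 had the smallest change of the cluster. Serpinb8 is an inhibitor of the proprotein convertase furin that many tissues express. It held 248, 442, 174, 512 and 151 in ATM-WT and 83.8, 36.01, 61.4, 132 and 99.6 in ATM-KO, so the lowest ATM-WT tumour lay just above the highest ATM-KO tumour. Its log2 fold change was -1.83 ± 0.41 (limma adjusted p = 0.0028), and its mean was 3.70-fold lower. It lies at the end of the cluster away from Serpinb5.

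Serpinb12 was the call lost under the most alternatives. Serpinb12 is an inhibitor of trypsin-like proteases. It held 2.54, 120.0, 0.961, 158 and 21.9 in ATM-WT and 0, 1.78, 0, 5.52 and 0 in ATM-KO, so A1 and A3 fell within the range of the ATM-KO tumours. Its log2 fold change was -3.47 ± 1.22 (limma adjusted p = 0.034). The call was lost when any 1 of 6 libraries was left out: A2 (-2.82, adjusted p = 0.076), A4 (-2.72, 0.084), A5 (-3.42, 0.062), A11 (-3.26, 0.071), A13 (-3.26, 0.071) or A15 (-3.26, 0.072). It was also lost after quantile normalization (-2.38, adjusted p = 0.16). Without both A2 and A4 the log2 fold change of Serpinb12 was -1.60 (adjusted p = 0.21, range over all alternatives 0.0075 to 0.21).

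The chromosome 13 genes did not move as one. Serpinb1a, an inhibitor of the neutrophil proteases elastase, cathepsin G and proteinase 3, was the only one called lower. It held 1280, 814, 2090.2, 1435 and 1266 in ATM-WT and 249, 149, 419, 211 and 342 in ATM-KO. The groups did not overlap, and the log2 fold change was -2.35 ± 0.29 (limma adjusted p = 3.19e-05), a mean 5.03-fold lower. Its relative Serpinb1b held 12.9, 24.9, 27.4, 29.7 and 7.22 in ATM-WT and 65.9, 65.4, 41.9, 34.5 and 21.2 in ATM-KO, where only A15 lay within the ATM-WT range. The log2 fold change of Serpinb1b was 1.17 ± 0.48, with limma adjusted p = 0.061. It passed without A4 (1.34, adjusted p = 0.046), without A15 (1.41, 0.037), without A2 and A4 together (1.54, 0.028) and after quantile normalization (2.03, 0.013), over a range of 0.013 to 0.14. Serpinb1c was at or below 2.85 in every library and was not tested.

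Of the Serpinb6 genes, which inhibit cathepsin G and other serine proteases in the cytosol, Serpinb6a rose slightly. It held 4025, 2337, 4818, 3148 and 3840 in ATM-WT and 4797, 4588, 5707, 5419 and 5548 in ATM-KO. The groups overlapped, since A3 lay above A11 and A12. The log2 fold change was 0.56 ± 0.17 (limma adjusted p = 0.015), 0.30 without A2 and A4 (adjusted p = 0.038), and 0.43 after quantile normalization, where it did not pass (adjusted p = 0.056). Serpinb6b held 2113, 605, 1959, 959 and 1690 in ATM-WT and 1043, 1102, 1343, 1619 and 1443 in ATM-KO, with a log2 fold change of -0.034 ± 0.30, a 95% interval from -0.69 to 0.62 and limma adjusted p = 0.94. A2 and A4 were its lowest libraries, and without them Serpinb6b was lower in ATM-KO (-0.57, adjusted p = 0.0094). Serpinb6c was at or below 3.24 in every library.

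Serpinb9 is the granzyme B inhibitor with which lymphocytes, dendritic cells and some tumours protect themselves. It held 2116, 675, 1607, 1169 and 2584 in ATM-WT and 1843, 1922, 1785, 2466 and 1779 in ATM-KO. The ranges overlapped fully, and the log2 fold change was 0.40 ± 0.29, with a 95% interval from -0.23 to 1.03 and limma adjusted p = 0.28. Without A2 and A4 the log2 fold change of Serpinb9 was -0.086 (adjusted p = 0.68).

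Of its rodent copies, 3 rose from very low levels, and they passed the filter only through ATM-KO, where they are high. Serpinb9b held 16.7, 14.7, 3.98, 3.32 and 9.84 in ATM-WT and 77.7, 36.96, 50.3, 149 and 71.02 in ATM-KO (2.93 ± 0.53, limma adjusted p = 6.13e-04). Serpinb9e was listed at 0 in 4 ATM-WT libraries and at 0.995, about 1 read, in A3. In ATM-KO it held 35.8, 42.5, 42.7, 70.5 and 23.1. Its log2 fold change was 5.17 ± 0.53 (limma adjusted p = 8.45e-06), and 6.03 or 3.13 with a pseudocount of 0.5 or 5. Serpinb9g held 0, 0, 1.99, 0 and 1.97 in ATM-WT and 17.4, 28.6, 9.14, 64.3 and 17.8 in ATM-KO (3.91 ± 0.68, limma adjusted p = 4.62e-04). None of these 3 genes overlapped between groups. Serpinb9f, below the level tested, was listed at 0 in 4 ATM-WT libraries with 5.80 in A4, and held 0, 7.39, 3.05, 9.82 and 5.33 in ATM-KO. Serpinb9d was listed at 0 in every ATM-WT library and held 8.02 in A14 and 0.889 in A15. How the reads of Serpinb9d to Serpinb9g were divided among these copies was not tested.

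**Figure D3:**
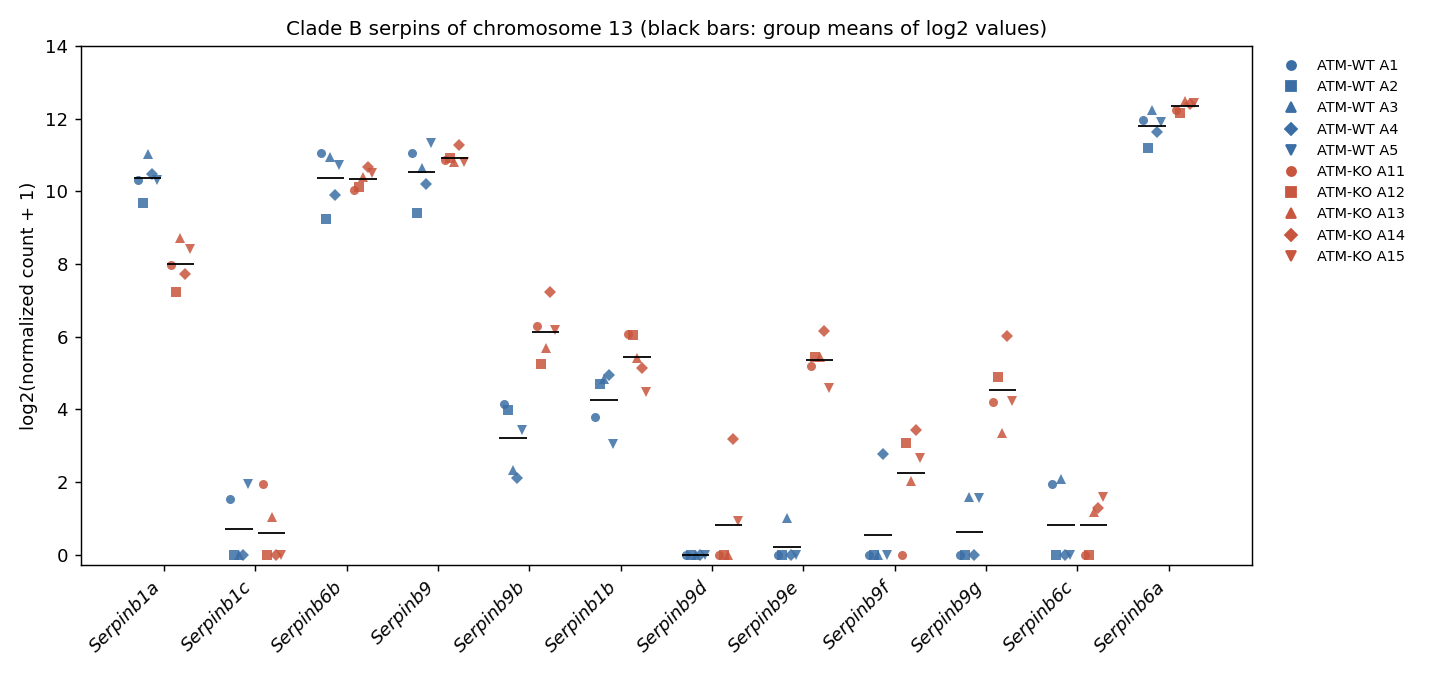
Each point is 1 library's log2(normalized count + 1) of a chromosome 13 member (vertical axis), ATM-WT in blue and ATM-KO in red with 1 marker shape per library, and black bars are group means of log2 values over 5 libraries. Serpinb1a is lower in every ATM-KO library, Serpinb9b, Serpinb9e and Serpinb9g are higher in every one, and Serpinb6b and Serpinb9 overlap.

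Counting separation alone, 9 of the 18 tested members had all ATM-KO libraries below all ATM-WT libraries and 3 had them all above, where 18.2% and 17.0% of all genes tested did so. The 9 were 8 of the 10 chromosome 1 genes, without Serpinb3b and Serpinb12, and Serpinb1a. Of these 9, all but Serpinb2, Serpinb8 and Serpinb1a passed the filter only through ATM-WT. The 3 above were Serpinb9b, Serpinb9e and Serpinb9g, which passed it only through ATM-KO.

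The members also varied among the ATM-WT tumours. In 8 of 10 chromosome 1 genes the 2 highest ATM-WT libraries were A2 and A4, and in 6 of 10 the lowest was A1. The exceptions to the first pattern were Serpinb2, highest in A2 and A3, and Serpinb7, highest in A1 and A5 and lowest in A2. The highest library was more than 10 times the lowest for Serpinb3a (78.1), Serpinb3d (72.0), Serpinb12 (165), Serpinb11 (13.04) and Serpinb10 (12.5), against 2.92 for Serpinb7 and 3.11 for Serpinb2. On chromosome 13, A2 was the lowest library for 4 of the 6 tested genes with a single lowest ATM-WT library, namely Serpinb1a, Serpinb6a, Serpinb6b and Serpinb9. Among ATM-KO tumours A14 was the highest for 7 of the 9 chromosome 1 genes with a single highest library and for 5 of 8 tested chromosome 13 genes. Apart from Serpinb8 at 132, those chromosome 1 values in A14 were 0.893 to 6.25 normalized counts, a few reads at most.

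**Figure D4:**
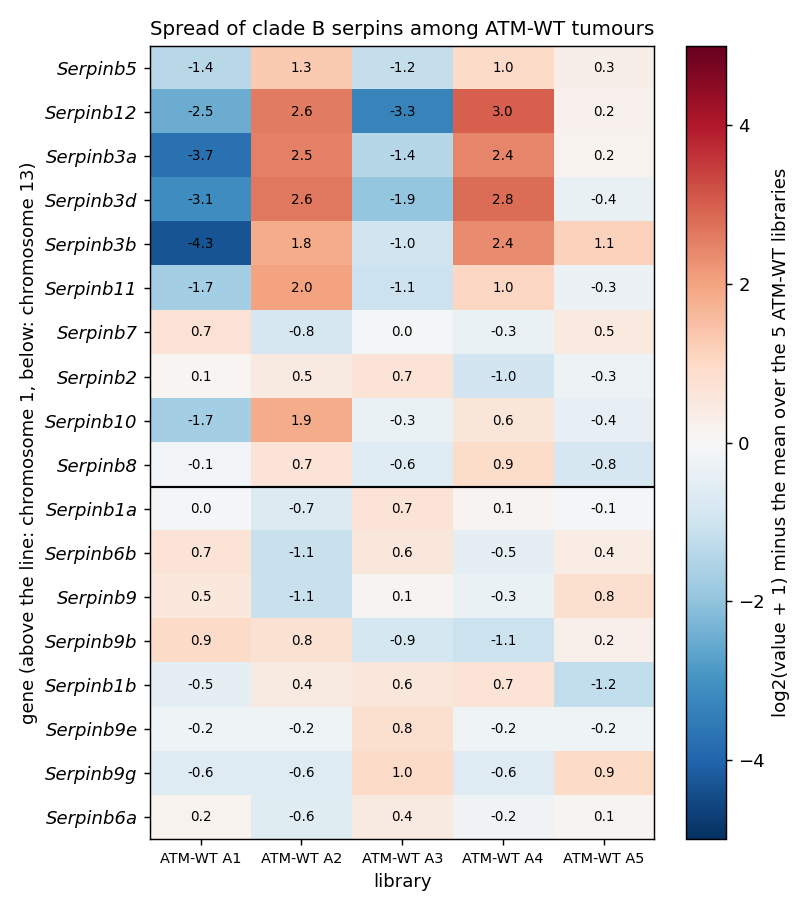
Log2(value + 1) of the 18 tested members in each ATM-WT library (columns) minus the gene's mean over the 5 ATM-WT libraries, with red above and blue below that mean. Serpinb3a is 2.5 above its mean in A2 and 3.7 below in A1, and Serpinb9 is 1.1 below its mean in A2.

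Markers of several cell types were read beside these genes, and their part in the results was not tested. Over all genes tested, 24.3% were lower and 22.1% higher in ATM-KO. Of 15 stratified epithelium markers 15 fell (median -6.80), and their summed level was 57998 to 338352 in ATM-WT and 4220 to 5656 in ATM-KO. That sum was highest in A2 (338352) and A4 (265453) and lowest in A1 (57998), the order seen in Serpinb3a at both ends. Krt17, a basal keratin, had a log2 fold change of -8.88 ± 0.37 (limma adjusted p = 2.52e-08). Of 12 general epithelium markers 12 fell (median -6.44), and their sum was 31109 to 80433 in ATM-WT and 1908 to 3145 in ATM-KO, where no marker was listed at 0 in all 5 tumours. The general sum was lowest in A3 and highest in A5. Most of the general sum in ATM-KO was Krt18, with a mean of 1710 (4524 in ATM-WT). Krt19 and Krt8, with the smallest p in that list, had means of 10.2 and 15.2 in ATM-KO, from 10238 and 10857. The epithelial markers of both lists were thus all called lower in ATM-KO tumours, but not all were near 0 there. The stratified marker Pkp1 kept a mean of 2452 in ATM-KO, against 6316 in ATM-WT, and its groups overlapped.

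Several broad genes are also expressed by immune cells. Of 5 tested neutrophil markers (7 of 9 in the table) 4 fell and none rose (median -1.52), with a sum of 1999 to 3617 in ATM-WT and 578 to 1713 in ATM-KO. Of 10 macrophage and monocyte markers 1 rose (Cd68) and none fell (median 0.49), with a sum of 22940 to 68303 and 41729 to 62467, lowest in A2. Of 9 tested cytotoxic and NK cell markers 2 rose, Gzma and Gzmb, and none fell (median 1.03), with a sum of 283 to 1425 and 1036 to 2705, also lowest in A2. With 22.1% of all genes tested higher in ATM-KO, the risen macrophage and cytotoxic markers are not read as a result about these cells. Of 7 tested mast cell markers 7 fell (median -5.07; sum 686 to 2794 and 114 to 187), and of 8 fibroblast markers 7 fell and none rose (median -1.95; sum 159518 to 577877 and 37139 to 108751). No marker of these lists was listed at 0 in all ATM-KO tumours.

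A list of proteases and partner genes, of which only some are established targets of these serpins, went both ways. Of 30 listed, 26 were in the table and 22 tested, of which 11 were lower and 7 higher in ATM-KO, with a median of -0.47 (-0.38 without Klk10, listed at 0 in all ATM-KO tumours). The membrane proteases matriptase (St14) and prostasin (Prss8) had the smallest p. St14 fell from 2823 ± 1379 to 66.03 ± 21.6 (SD, n = 5; -5.27 ± 0.38, limma adjusted p = 6.25e-07) and Prss8 from 308 ± 97.5 to 1.57 ± 2.49 (-7.32 ± 0.58, limma adjusted p = 1.34e-06). Cma1, Gzma and Gzmb stand in this list and in a marker list above. The mast cell chymase gene Cma1 fell from 109 ± 65.7 to 2.15 ± 1.36. The urokinase receptor gene Plaur rose from 700 ± 222 to 2179 ± 155 (1.70 ± 0.20, limma adjusted p = 2.34e-05). The urokinase gene Plau rose from 3160 ± 479 to 5305 ± 233 (0.76 ± 0.11, limma adjusted p = 1.01e-04). Serpinb2, an inhibitor of urokinase, fell, and a link among these changes was not tested. The neutrophil elastase and proteinase 3 genes, targets of Serpinb1a, were below the level tested (Elane 0.393 ± 0.879 and 1.49 ± 1.95, Prtn3 8.91 ± 9.04 and 10.8 ± 5.13).

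Protease inhibitors of other families gave a further comparison. Of 16 cystatin, Kazal, Kunitz and related genes, 13 were tested, of which 9 fell and 1 rose (median -3.39, or -2.25 without Csta1, listed at 0 in ATM-KO). The epithelial Kunitz inhibitor gene Spint2 fell from 4068 ± 1894 to 55.2 ± 7.69 (-6.03 ± 0.32, limma adjusted p = 1.05e-07). Among 19 serpins of other clades, 14 were tested, 5 fell and 3 rose (median -0.86). For each side list, the share over all genes tested was 24.3% lower and 22.1% higher. The counts of the other serpin clades are not read as a result about serpins. Serpina9 fell from 81.5 ± 62.3 to 0.126 ± 0.281 and Serpine2, or protease nexin, from 7514 ± 1730 to 3429 ± 469.2. Serpind1 rose by 2.53 ± 0.41 on the log2 scale.

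The nearest RefSeq (GRCm38.p6) protein-coding genes beside the clusters that the deposited counts also held, 3 on each side, were read as well. This list was made after the serpins' values were seen. Over all genes tested, 24.3% were lower and 22.1% higher. Beside the chromosome 1 cluster, 4 of 6 were tested and 1 fell, Bcl2 (-0.63 ± 0.16, limma adjusted p = 0.0072), a count near that share and not read as a result. The nearest neighbour, Vps4b, did not pass (-0.24 ± 0.12, limma adjusted p = 0.13). Beside the chromosome 13 cluster 5 of 6 were tested, of which 4 rose and 1 fell. Wrnip1, next to Serpinb1a, rose by 0.73 ± 0.11 (limma adjusted p = 2.27e-04) and Nqo2, next to Serpinb6a, by 1.12 ± 0.20 (limma adjusted p = 6.75e-04), while Bphl fell by 2.13 ± 0.33 (limma adjusted p = 1.90e-04).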

How the data were processed

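The authors deposited normalized counts (a non-negative signal) of 23086 genes in 1 table with 10 columns. STAR, Salmon and DESeq2 stand in the submitters' processing notes without version, role or setting, and neither build nor annotation is named there. Each column's name gives a genotype and its own number. The labels hold no such number, so columns were mapped to a group and to no single sample. Of values up to 20 reads, 58.1% to 69.3% per library lay within 0.05 of a whole multiple of 1 read, too few for a count model.

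For genes with a mean of at least 10, log2(value + 1) was compared between genotypes by limma 3.58.1 (R 4.3.3), using lmFit and a trended eBayes, and Benjamini-Hochberg adjusted over all 16517, threshold 0.05. The procedure was tested on simulated data. Exact permutation tests were two-sided over all 252 splits. The members, lists and alternatives were chosen with earlier results of these data known. The motifs were chosen after the values were seen, as were Elane, Prtn3, Klk10, Plau, Krt18, Pkp1 and the genes beside the clusters. All members are named, and otherwise up to 4 genes of each further list with the smallest p. Of the genes this rule names, 1 is not reported here. Alternatives covered the pseudocount, the filter, scaling, eBayes settings and libraries left out. Promoter and transcript sequences came from RefSeq (GRCm38.p6) and GENCODE M21, whose build may differ from the authors'. Tables were handled in Python 3.11.15 with pandas 2.3.3 and numpy 2.4.6, and figures drawn with matplotlib 3.10.9.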

Additional observations from a re-analysis of the deposited data

Results flagged for a closer look

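In 4 of 36 sets of 5 libraries, 1 library lay far from the others on the log2(value + 1) scale. About 1 in 20 sets would do so for normally distributed values, which sets with many zeros are not. Serpinb3d in ATM-KO, at 0 throughout, had no range and could not be flagged. The measure is the gap to the nearest library over the whole range, against a critical value of 0.71. In ATM-KO, A14 stood apart for Serpinb11 (5.36 against 0 in the others, gap share 1.0), Serpinb3b (0.893 against 0, gap share 1.0) and Serpinb9 (2466 against 1779 to 1922, gap share 0.765). In ATM-WT, A3 stood apart for Serpinb9e (0.995 against 0, gap share 1.0). A gap share of 1.0 follows whenever the other libraries are all at 0, as for Serpinb11, Serpinb3b and Serpinb9e. A value near 0.9 is about 1 read in these libraries, so the flags of Serpinb3b and Serpinb9e each rest on 1 read.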

How the results depend on the processing

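Of 335 member values over 19 alternatives, 314 kept their direction and their side of the threshold, and 12 of the 18 tested members did so in all. With a mean of at least 50 in place of 10, fewer members were tested (11), and 1 was called higher in the whole family and 1 in the broad group, and 3 of 3 remaining genes lower. Without A2 and A4, 10 members were lower and 5 higher, with 2 broad genes lower (Serpinb1a and Serpinb6b). Serpinb6b ranged from -0.32 to 0.13 when 1 library was left out, changing sign without A1, A3, A5, A11 or A12, and Serpinb9 changed sign without A2 and A4 (-0.086). The cause was not tested. Leaving out 1 library at a time gave 10 to 11 members lower and 4 to 5 higher. Under quantile normalization the median over all genes went from 0.00467 to 0.15 and their split from 3649 higher and 4017 lower to 4514 and 3319, while all 10 chromosome 1 genes kept a negative value, 9 of them called, without Serpinb12. No paired analysis was possible because the columns carry no sample number from the labels. Depth limits genes of a few reads, above all in A2.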
